A study of Mus musculus with 24 samples.

Results

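The comparison described here set the dentate gyrus of APP/PS1 mice that had a running wheel against that of wild-type (WT) mice that had none, and asked which genes differed between them. It used 10 of the 24 RNA sequencing libraries of the study, chosen by their labels: 5 from exercised APP/PS1 mice and 5 from WT mice. Each library was described as 1 mouse. APP/PS1 mice are transgenic and serve as a model of Alzheimer's amyloidosis. The exercised mice had free access to a wheel for 1 month and received no BCI-838, a prodrug that blocks the metabotropic glutamate receptors mGluR2 and mGluR3. The WT mice were C57BL6/J with neither wheel nor drug, and untreated APP/PS1 mice (5 libraries) had neither as well. The labels give no age, sex or transgene promoter, and do not say whether the WT mice were littermates. Genotype and wheel access differed together between the 2 groups compared, so their parts in any difference cannot be told apart from these 10 libraries. The untreated APP/PS1 mice are therefore given alongside.

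The dentate gyrus is the gateway of the hippocampus. Its granule neurons receive input from the entorhinal cortex, and a niche at their inner border adds new neurons in adult life. Wheel running is known to raise the number of new neurons there. In APP/PS1 mice, cleavage of the amyloid precursor protein by β- and γ-secretase releases amyloid-β, which collects in plaques that microglia and astrocytes surround.

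The 10 libraries held between 48656360 and 60679328 counts, and 18286 of 26667 genes had enough counts for a test. All 22 granule neuron markers were among them, with a summed level of 1119 to 3998 CPM (counts scaled by library size) in WT and 2099 to 3750 CPM in exercised libraries. Levels below are CPM, and differences are log2 fold changes with a standard error (SE), positive where exercised APP/PS1 was higher. Called genes are those whose p from the quasi-likelihood test of edgeR, adjusted by Benjamini-Hochberg over all 18286 genes, was under 0.05.

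The 2 genes called in this comparison were App and Prnp, 0.0109% of the genes tested, and both were higher in exercised APP/PS1 mice. App (chr16:84949685-85173766, GRCm38, minus strand) encodes the amyloid precursor protein. It stood at 1759, 1826, 2073, 1531 and 1452 CPM in the 5 WT libraries and at 3005, 2467, 3379, 3436 and 3804 CPM in the 5 exercised ones. The lowest exercised library lay above the highest WT library. The difference was 0.90 (SE 0.115, adjusted p = 6.69e-04), or 1.86-fold. Prnp (chr2:131909928-131938429, plus strand) encodes the prion protein, and a mouse Prnp promoter drives the transgenes of widely used APP/PS1 lines. Prnp stood at 755, 911, 985, 802 and 775 CPM in WT and at 2040, 1848, 1915, 1840 and 2388 CPM in exercised libraries, again with no overlap. The difference was 1.25 (SE 0.0971, adjusted p = 1.33e-07), or 2.37-fold. Reads from a transgene and from the native gene cannot be separated in these counts, and exons of Prnp overlap those of Prn on the same strand.

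App and Prnp stood near the same levels with and without the wheel. Untreated APP/PS1 libraries held 2880 to 3717 CPM of App and 1717 to 2153 CPM of Prnp. The difference between exercised and untreated APP/PS1 was -0.07 for App (95% interval -0.31 to 0.17) and 0.00 for Prnp (-0.20 to 0.20), and neither passed the test (adjusted p = 1.00 by edgeR for both). The plot of these genes by library shows the separation of both called genes.

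**Figure D1:**
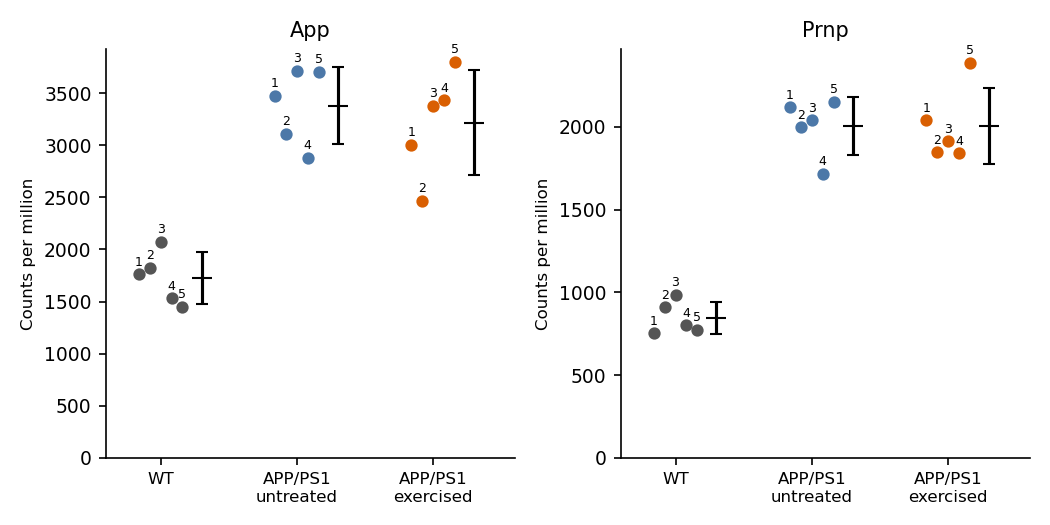
App and Prnp in CPM (vertical axes start at 0) in WT, untreated APP/PS1 and exercised APP/PS1 libraries; numbers are replicate numbers, and bars are mean and SD of 5 libraries. App is at 1452 to 2073 CPM in WT and 2467 to 3804 CPM in exercised libraries, and Prnp at 755 to 985 and 1840 to 2388 CPM.

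Beyond these genes no difference passed the adjusted threshold in edgeR. DESeq2 called 3 genes higher and 3 lower, voom with quality weights called 240 higher and 221 lower, and in a fit of the 10 libraries alone App was not called (adjusted p = 0.200, edgeR). Those voom totals, out of 18286 genes, are the background for the voom calls in the gene lists below. With edgeR, 1662 genes (9.09%) had an unadjusted p under 0.05, 906 higher (4.95%) and 756 lower (4.13%) in exercised mice. For untreated APP/PS1 against the same WT libraries, whose called genes were also App and Prnp, the count was 504 (2.76%), 366 higher (2%) and 138 lower (0.755%). Exercised against untreated APP/PS1 gave 1 called gene, Sulf1, which was lower (0.00547%), and 995 genes (5.44%) at an unadjusted p under 0.05, 434 higher (2.37%) and 561 lower (3.07%). The genes with small p were not spread evenly over gene sizes. Among the 20% of genes with the shortest span in the genome (median 3.38 kb), 350 were higher and 75 lower at that p, and the median difference was 0.08. Among the 20% with the longest span (median 129 kb), 38 were higher and 310 lower, and the median difference was -0.09. Across 17517 genes with a known span, Spearman's rho between span and difference was -0.26, a description in which all genes share the same 10 libraries.

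Among exercised libraries this size pattern was carried by 3 of the 5, and untreated APP/PS1 showed it to a smaller extent. For each library, the median deviation of the longest genes from their WT mean in log2 CPM, minus that of the shortest genes, was -0.38, -0.37 and -0.24 in exercised replicates 1, 2 and 5, but 0.04 and 0.06 in replicates 3 and 4. In WT it was 0.01, 0.04, -0.14, 0.05 and 0.04 in replicates 1 to 5. In untreated APP/PS1 it was -0.24, -0.03, 0.02, -0.13 and -0.02 in the same order. Spearman's rho between span and the difference of untreated APP/PS1 from WT was -0.17. Exercised replicate 4 also had the fewest genes with a count of all 24 libraries, 18884 at 60679328 counts. The other exercised libraries held 19758 to 20062 such genes. All values below without exercised replicates 1, 2 and 5 rest on replicates 3 and 4 for the exercised group. Without exercised replicates 1, 2 and 5, 591 genes had an unadjusted p under 0.05, and 649 did with the size measure as a covariate. That covariate is computed from the same expression values. Leaving out exercised replicate 4 gave 2865 such genes, replicate 3 gave 2614, and replicate 1 gave 849. The part of this library difference in the gene groups below was not tested apart from these alternatives, whose values are given with the main groups.

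**Figure D2:**
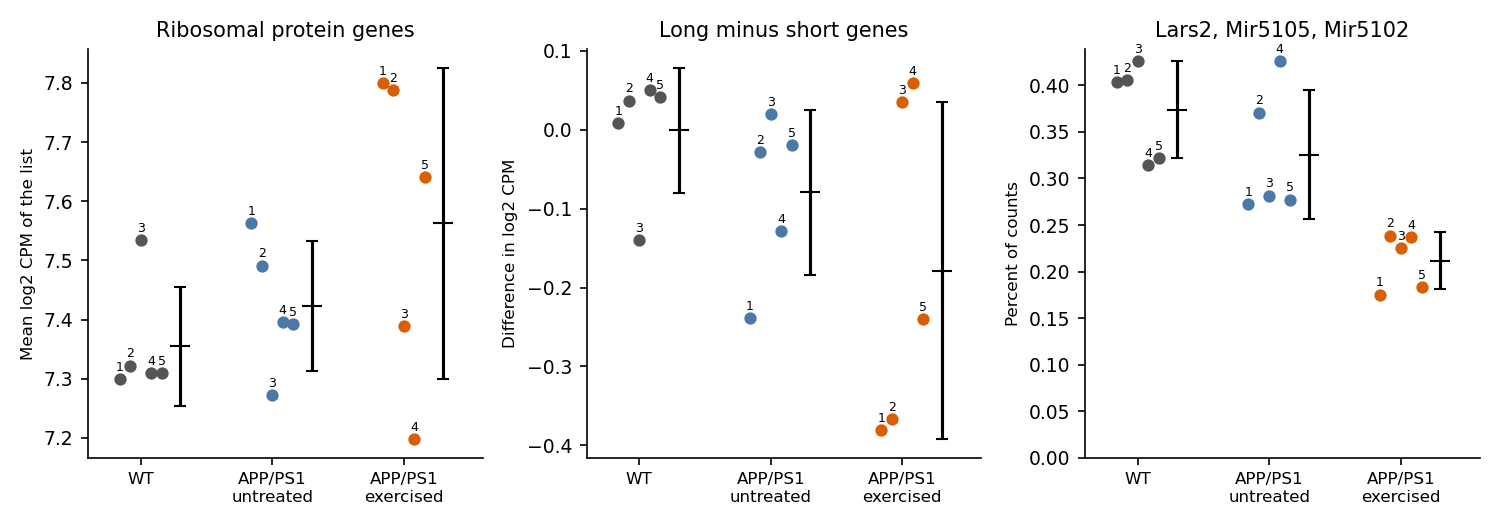
Mean log2 CPM of 77 ribosomal protein genes, long minus short genes in log2 CPM, and percent of counts on Lars2, Mir5105 and Mir5102 (axis from 0), by library and group with replicate numbers; bars are mean and SD of 5 libraries. Exercised replicates 1, 2 and 5 lie highest in the left panel and lowest in the middle panel. In the middle panel untreated APP/PS1 replicate 1 lies level with exercised replicate 5, both at -0.24. On the right all 5 exercised libraries lie below all 5 WT libraries.

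Ribosomal protein genes encode the protein part of the cytosolic ribosome, and their short mRNAs are translated together through a run of pyrimidines at the 5′ end. All 77 members tested were higher in exercised APP/PS1 than in WT, by a median of 0.23, against a median of 0.00 and 9171 of 18286 higher over all genes. None was called by edgeR, where 59 had an unadjusted p under 0.05, and voom with quality weights called 53. The median of untreated APP/PS1 against WT was 0.07. For 55 of the 77 genes RefSeq (GRCm38.p6) gave a promoter window, and in 20 of them (36.4%) a run of at least 8 C or T, opening with C, began within 10 bases of the annotated start on the transcript strand. The share over all 12108 tested genes with a window was 9.21%. The window of Rpl7a, a list member with small p, held no match under this rule. Rps26 and Rps12, also members with small p, are shown here for their matches. Their starts have the runs in capitals, with 100 bases before and 20 bases after the start. The first lies at chr10:128626487-128626606 and the second at chr10:23787190-23787309, both on the minus strand.
Rps26: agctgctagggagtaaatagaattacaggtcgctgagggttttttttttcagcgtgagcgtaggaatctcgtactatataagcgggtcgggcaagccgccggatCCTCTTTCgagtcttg
Rps12: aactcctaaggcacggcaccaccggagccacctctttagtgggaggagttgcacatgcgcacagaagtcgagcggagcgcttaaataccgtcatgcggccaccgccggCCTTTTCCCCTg
A match describes the letters only and names no site of control.

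The libraries that set the ribosomal difference were the same 3 that set the size pattern. Rps26 stood at 130, 137, 155, 134 and 134 CPM in WT and at 185, 189, 145, 152 and 179 CPM in exercised replicates 1 to 5. Replicates 3 and 4 fell within the WT range, and the groups overlapped (0.30, SE 0.0817, adjusted p = 0.481). No ribosomal protein gene had all exercised libraries above all WT libraries. Without exercised replicates 1, 2 and 5, 14 of 77 members were higher and the median was -0.05; with the size covariate it was 0.03. The median span of these genes was 3.29 kb. Leaving out exercised replicate 1 or 2 alone left 18 or 15 members at an unadjusted p under 0.05, and leaving out replicate 4 gave 77. Ribosomal protein genes have many near-identical pseudogenes, so single values are uncertain.

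Respiratory chain and ATP synthase genes of the nucleus followed a like course at smaller size. Of 73 tested, 69 were higher, with a median of 0.14 against -0.02 in untreated APP/PS1, and 8 higher and 1 lower had an unadjusted p under 0.05. Ndufb4, a subunit of complex I, gave 0.26 (SE 0.0822), and Cox7a2, a subunit of cytochrome c oxidase, gave -0.43 at the other end. None was called by edgeR, and voom with quality weights called 5, against 240 higher and 221 lower of all 18286 genes. Without exercised replicates 1, 2 and 5, 14 of 73 were higher and the median was -0.07; with the size covariate 19 were higher and it was -0.04. Leaving out 1 library at a time gave 2 (exercised replicate 1 or 5) to 37 (WT replicate 3) higher members at that p.

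Genes of the contractile apparatus of vascular smooth muscle had fold changes above those of most list members, and none passed the edgeR test. In bulk tissue, more cells of a type and more RNA per cell cannot be told apart. Cnn1 (calponin, which binds actin; chr9:22099216-22109630) stood at 0.55, 0.15, 0.32, 0.20 and 0.38 CPM in WT and at 1.05, 1.52, 0.92, 1.52 and 0.57 CPM in exercised libraries. All exercised libraries lay above all WT libraries, at a low level. The difference was 1.79 (SE 0.402) with an adjusted p of 0.481 by edgeR, 0.0384 by DESeq2 and 0.0476 by voom, so the call depended on the tool. Acta2, smooth muscle actin, stood at 12.8, 6.39, 4.60, 9.24 and 8.74 CPM in WT and at 26.0, 32.6, 15.9, 35.0 and 11.8 CPM in exercised libraries. Only exercised replicate 5 fell below the highest WT library (1.54, SE 0.41, adjusted p = 0.481).

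Myh11, Myl9 and Tagln were the other contractile genes named. All named contractile genes were picked by small p, Myl9 among all genes and the others within the mural cell list. Their shared direction is therefore no separate support. Myh11, smooth muscle myosin, stood at 5.49 to 12.2 CPM in WT and 13.6 to 38.4 CPM in exercised libraries, without overlap (1.27, SE 0.355). Myl9, a myosin light chain, stood at 8.05 to 12.0 and 12.6 to 24.6 CPM, without overlap (0.92, SE 0.224). Tagln, transgelin, overlapped between 3.40 to 9.25 and 8.49 to 21.3 CPM (1.16, SE 0.345); its exons overlap those of Pcsk7 on the other strand. All 3 had an adjusted p of 0.481. In untreated APP/PS1 against WT these genes gave 0.81 for Cnn1, 0.49 for Acta2, 0.19 for Myh11, 0.27 for Myl9 and 0.33 for Tagln. The test of exercised against untreated APP/PS1 called none of them (adjusted p of 0.501 to 0.79, edgeR).

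Without exercised replicates 1, 2 and 5 the differences were 1.91 for Cnn1, 1.60 for Acta2, 1.54 for Myh11, 0.93 for Tagln and 0.70 for Myl9. Of the 20 mural cell and fibroblast genes 14 were higher, and Cnn1, Acta2, Myh11 and Tagln were the 4 at an unadjusted p under 0.05. The pericyte markers Pdgfrb (-0.01, SE 0.116) and Rgs5 (0.07, SE 0.194) and the collagen gene Col1a2 (-0.09) lay near 0. They do not stand for the rest of the list, whose members ran from -0.65 to 1.79. The list's median was 0.22, but without WT replicate 3 it was -0.01 with 9 of 20 higher, without exercised replicate 2 it was 0.08 with 12 higher, and without WT replicate 2 it was 0.12 with 12 higher. Voom gave a median of -0.01 with 10 higher.

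Smooth muscle genes are known targets of serum response factor, which binds the CArG box, CC followed by 6 A or T and GG. RefSeq gave a promoter window for 3 of the 5 contractile genes, Acta2, Cnn1 and Myl9. Boxes that depart from this exact pattern were not counted, so a window without a match may still hold one. An exact match was found in Myl9 alone, beginning 161 bases before the start, and in 1.67% of all tested genes with a window. Myl9 is shown here for that match. Its window (chr2:156775214-156775493, GRCm38.p6, plus strand) is shown with the box in capitals.
Myl9: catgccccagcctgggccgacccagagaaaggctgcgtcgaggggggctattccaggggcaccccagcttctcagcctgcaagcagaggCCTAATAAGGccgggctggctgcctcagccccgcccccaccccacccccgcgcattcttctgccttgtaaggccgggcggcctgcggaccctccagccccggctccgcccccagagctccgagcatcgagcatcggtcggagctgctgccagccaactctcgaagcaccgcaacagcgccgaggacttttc

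Endothelial genes were also mostly higher. Of 18 tested, 17 were higher, with a median of 0.22 against -0.01 in untreated APP/PS1, and 7 had an unadjusted p under 0.05. Slco1a4, an organic anion transporter of the blood-brain barrier, stood at 45.6, 39.3, 36.4, 46.0 and 39.8 CPM in WT and at 58.2, 66.0, 42.7, 55.4 and 54.5 CPM in exercised libraries. Only exercised replicate 3 lay within the WT range (0.42, SE 0.112, adjusted p = 0.481 by edgeR and 0.0482 by voom). Slc7a5, the large neutral amino acid transporter, lay at 54.5 to 64.6 CPM in WT and 65.6 to 80.3 CPM in exercised libraries, without overlap (0.27, SE 0.0982). The pan-endothelial genes Cldn5 (0.10, SE 0.188) and Pecam1 (0.08, SE 0.129) had smaller differences.

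Acvrl1, Igfbp7 and Esm1, genes outside these lists that vessels also express, were among those of smallest p and did not share a direction. Acvrl1, a receptor for BMP9 on endothelium, stood at 9.20 to 11.1 CPM in WT and at 20.02, 20.4, 10.2, 18.8 and 13.1 CPM in exercised replicates 1 to 5 (0.66, SE 0.157). Igfbp7, a secreted binding protein of vessels, stood at 12.7 to 16.1 CPM and at 24.1, 21.4, 13.4, 19.9 and 20.6 CPM (0.48, SE 0.123). Both overlapped WT through replicate 3 alone, and both had an adjusted p of 0.481. Esm1 (endocan, secreted by endothelium) stood at 0.119 to 1.62 CPM in WT and 0.0550 to 0.208 CPM in exercised libraries, with overlap (-2.08, SE 0.57, adjusted p = 0.481). Without replicate 3 Acvrl1 and Igfbp7 passed the test at an adjusted p of 0.0389, and 4 genes were then called. Without replicates 1, 2 and 5 their differences were 0.47 and 0.23, and with the size covariate 0.50 and 0.32, none called. When exercised replicates 1, 2 and 5 were left out, no endothelial list member had an unadjusted p under 0.05, and 14 of 18 were higher with a median of 0.16; with the size covariate 16 were higher, 4 of them at that p, with a median of 0.19.

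Genes of the presynaptic active zone, where vesicles fuse, leaned lower. Of 32 synaptic vesicle and active zone genes 28 were lower in exercised APP/PS1, with a median of -0.20 against -0.10 in untreated APP/PS1, and 5 had an unadjusted p under 0.05, among them Pclo, Bsn and Rims1. None was called by edgeR, and voom with quality weights called 3, Pclo and Bsn included, against 240 higher and 221 lower of all 18286 genes. Pclo encodes Piccolo, a scaffold of the active zone, and stood at 370, 405, 370, 419 and 354 CPM in WT and at 201, 247, 330, 324 and 243 CPM in exercised libraries. All exercised libraries lay below all WT libraries, and replicates 3 and 4 were nearest to WT (-0.51, SE 0.135, adjusted p = 0.481). Its partner Bsn (Bassoon) stood at 490 to 783 and 406 to 535 CPM (-0.52, SE 0.149), and Rims1, which ties vesicles to calcium channels, at 88.8 to 128 and 57.0 to 100 CPM (-0.52, SE 0.159). Both overlapped.

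These presynaptic genes are long, with a median span of 66.5 kb over the list. With the size covariate the differences were -0.26 for Pclo, -0.34 for Bsn and -0.30 for Rims1, and without exercised replicates 1, 2 and 5 they were -0.24, -0.41 and -0.28. Without those replicates no list member had an unadjusted p under 0.05, and 26 of 32 were lower, with a median of -0.11. With the size covariate 3 lower members were at that p, 5 of 32 were higher, and the median was -0.13. Leaving out exercised replicate 4 gave 10 members at that p, and leaving out WT replicate 4 or 5 gave 8. Receptor lists leaned the same way at smaller size. Of 34 NMDA, AMPA and postsynaptic density genes 24 were lower (median -0.09, also -0.09 in untreated APP/PS1), with Grin2b, an NMDA receptor subunit, at -0.58. Of 16 GABA receptor genes 15 were lower (median -0.13), and in untreated APP/PS1 that median was -0.17. Of the 20 genes for metabotropic glutamate receptors and their Gi signalling, 17 were lower (median -0.14, and -0.13 in untreated APP/PS1). None of the 20 had an unadjusted p under 0.05. Grm2 gave 0.19 (SE 0.3) and Grm3 gave -0.15 (SE 0.173).

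**Figure D3:**
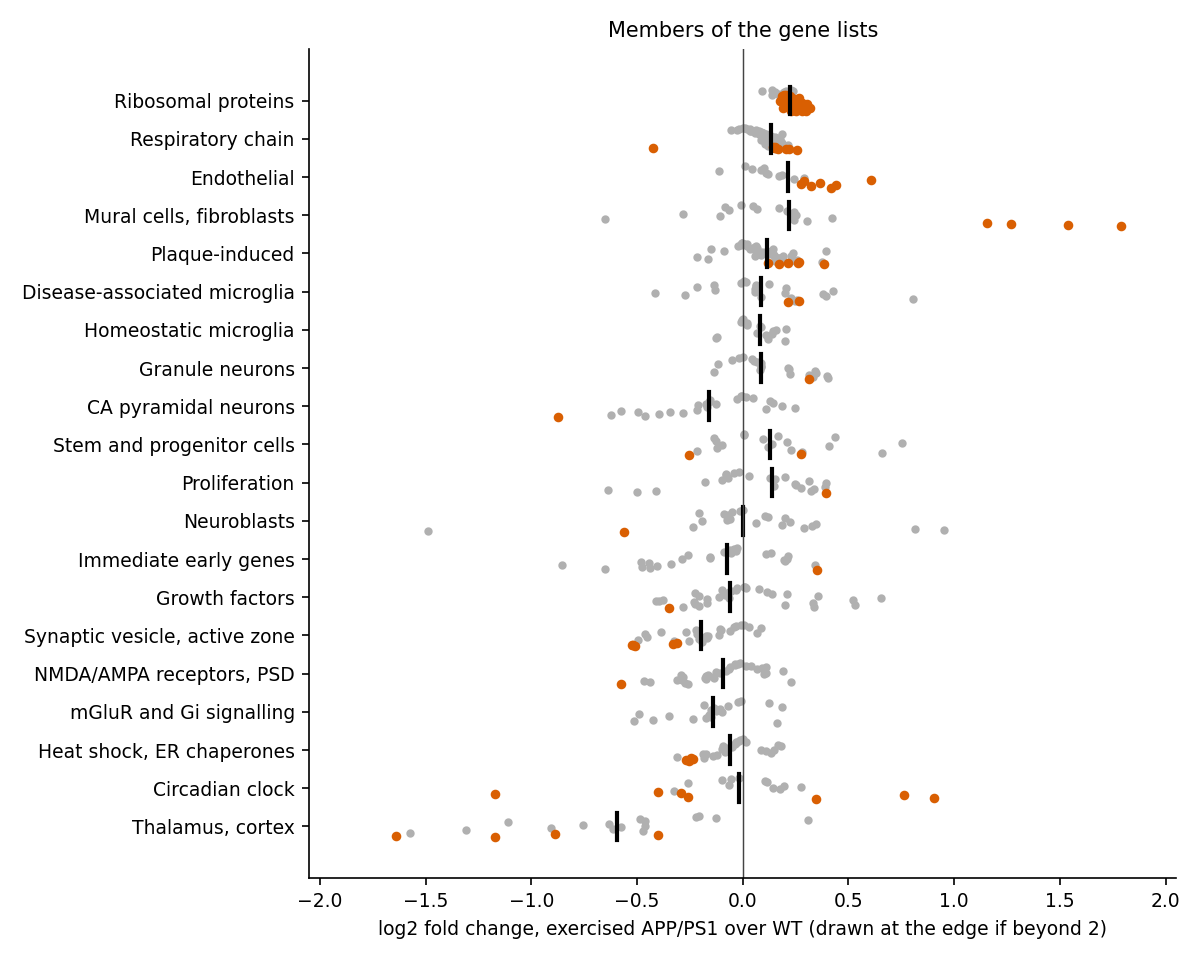
log2 fold change of exercised APP/PS1 over WT for the members of 20 gene lists; grey points have an unadjusted p of at least 0.05, orange points a lower one, and black lines are medians. Ribosomal protein genes all lie right of 0 (median 0.23), 4 mural cell genes lie beyond 1, and thalamus and cortex markers have a median of -0.60.

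Clock output genes included some of the higher values outside the vessel lists. The clock runs on CLOCK and BMAL1 (gene Arntl), which switch on the repressors Per and Cry and outputs such as Dbp and Nr1d1. Dbp, a transcription factor of the clock output, stood at 41.8, 36.8, 47.0, 36.7 and 34.6 CPM in WT and at 89.2, 76.7, 40.9, 92.7 and 69.3 CPM in exercised libraries. Exercised replicate 3 alone lay in the WT range (0.91, SE 0.246, adjusted p = 0.481). Nr1d1, which encodes the repressor REV-ERBα, stood at 183 to 237 CPM in WT and at 275, 259, 211, 252 and 278 CPM in exercised libraries (0.35, SE 0.0855), again with replicate 3 within WT. Gm129, also known as Ciart, a clock repressor, gave 0.76 (SE 0.286) with the same library low at 7.26 CPM. Exons of Nr1d1 overlap Thra and those of Dbp overlap Sphk2 on the other strand.

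Of the 19 clock genes 9 were higher and 10 lower, and 3 higher and 4 lower members had an unadjusted p under 0.05. Nfil3, a repressor of Dbp targets, gave -0.26 (SE 0.095), Clock gave -0.29 (SE 0.126) and Rora, an activator of Arntl, gave -1.17 (SE 0.466). Arntl gave -0.32 (SE 0.174), Per1 0.18 (SE 0.107) and Per2 -0.05 (SE 0.155). Rora was also -1.15 in untreated APP/PS1 and belongs to the thalamus list below. In untreated APP/PS1 against WT, Dbp gave 0.22, Nr1d1 0.11 and Gm129 -0.08. The test of exercised against untreated APP/PS1 did not call them (0.69, 0.23 and 0.85, adjusted p of 0.543 to 0.657, edgeR). Leaving out exercised replicate 1 or 2, or WT replicate 2, left 1 of the 4 lower members at that p, and leaving out exercised replicate 5 left 2. With the size covariate 2 higher and 0 lower members were at that p, and without exercised replicates 1, 2 and 5 there were 1 and 1. Dbp then gave 0.75 and 0.76, Nr1d1 0.26 and 0.20, and Gm129 0.59 and 0.61 in the same order. Voom called Dbp, Nr1d1 and Clock, against 240 higher and 221 lower of all 18286 genes. The labels give no hour of tissue collection, and its part was not tested. The cold-inducible RNA-binding protein Cirbp, which is under daily control of body temperature, stood at 75.1 to 86.3 CPM in WT and 97.2 to 119 CPM in exercised libraries, without overlap (0.37, SE 0.0944, adjusted p = 0.481). Its relative Rbm3 lay just outside the 15 genes of smallest p, with 0.53 (SE 0.137), and is named after its values were seen.

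Some chaperones of the endoplasmic reticulum had lower levels in every exercised library than in any WT library. Hspa5 (BiP), the main chaperone of that compartment, stood at 191, 187, 173, 164 and 163 CPM in WT and at 151, 142, 149, 142 and 143 CPM in exercised libraries (-0.27, SE 0.096, adjusted p = 0.481). Hsp90b1 (GRP94) stood at 265 to 317 and 226 to 260 CPM (-0.25, SE 0.0884), and Calr (calreticulin), a lectin chaperone, at 176 to 183 and 135 to 165 CPM (-0.24, SE 0.107). With Pdia6, a disulfide isomerase at -0.18 and named for its separation, 4 of 28 heat shock and unfolded protein genes lay below WT in all 5 libraries, against 0.383% of all genes. None was called. The median over the 28 genes was -0.06, with 21 lower. In untreated APP/PS1 against WT, Hspa5 gave 0.03, Hsp90b1 -0.01 and Calr 0.01, and exercised against untreated mice gave -0.30, -0.24 and -0.25 (adjusted p of 0.469 to 0.834, edgeR). These differences against WT were -0.27, -0.21 and -0.25 without exercised replicates 1, 2 and 5. The list's count at an unadjusted p under 0.05 was 4 and ranged from 2 (without exercised replicate 2) to 8 (without WT replicate 4), with 7 without exercised replicate 5. With the size covariate it was 2, with 24 of 28 lower and a median of -0.07, and without exercised replicates 1, 2 and 5 it was 1, with 24 lower and a median of -0.10. Voom gave 16 lower and a median of -0.01, and called none.

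The 3 lowest p among lower genes with a symbol of their own belonged to Mir5102, Lars2 and Mir5105, which are known for sequence that resembles rRNA. Lars2, the mitochondrial leucyl-tRNA synthetase (chr9:123366927-123462666), stood at 2773, 2958, 3115, 2323 and 2266 CPM in WT and at 1230, 1588, 1610, 1789 and 1347 CPM in exercised libraries. All exercised libraries lay below all WT libraries (-0.83, SE 0.18, adjusted p = 0.481 by edgeR and 0.0150 by DESeq2). Mir5102 gave -1.01 (SE 0.206, adjusted p = 0.417 and 0.00454) and Mir5105 gave -0.93 (SE 0.203, adjusted p = 0.481 and 0.0150) by the same 2 tools. Both also lay below WT in every library. Together the 3 loci took 0.374% ± 0.052 (SD, n = 5) of counts in WT and 0.212% ± 0.030 (SD, n = 5) in exercised libraries. The untreated APP/PS1 libraries held 0.273% to 0.426%. The rRNA precursor Rn45s took 1.16% to 2.78% of counts in WT and 0.876% to 1.50% in exercised libraries, so the ranges overlapped. Leaving out exercised replicates 1, 2 and 5 gave -0.98 for Mir5102, -0.67 for Lars2 and -0.85 for Mir5105. Whether the 3 loci share reads was not tested.

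Genes that respond to amyloid were mostly higher, and edgeR called no member of these lists. Voom called Ctsa and Trem2, where it called 240 higher and 221 lower of all 18286 genes. Among 53 genes induced near plaques, 44 were higher, and the median was 0.12 against 0.05 in untreated APP/PS1, and 6 had an unadjusted p under 0.05. Ctsa, a lysosomal carboxypeptidase, gave 0.17 (SE 0.059), and Apoe, the lipid carrier of glia, stood at 1553 to 1673 CPM in WT and at 2331, 2027, 1639, 1560 and 1841 CPM in exercised libraries (0.22, SE 0.0958). Replicates 3 and 4 were again in the WT range. Of 25 genes of disease-associated microglia 19 were higher (median 0.09), with Trem2, the lipid-sensing receptor of microglia, at 0.25 (SE 0.123) and Cst7, a cystatin of plaque microglia, at 0.39 (SE 0.427). Homeostatic microglia genes leaned likewise, with 13 of 17 higher (median 0.08), and none was at an unadjusted p under 0.05. Among 27 reactive astrocyte genes 18 were higher; Vim, an intermediate filament, gave 0.49 (SE 0.201) and 0.51 in untreated APP/PS1, and Gfap gave 0.24 (SE 0.226). The complement component C3 stood lower, at 0.519 to 1.38 CPM against 0.595 to 4.53 CPM in WT (-1.28, SE 0.522), with overlap. Without exercised replicates 1, 2 and 5, 28 of 53 plaque-induced genes were higher and the median was 0.01; with the size covariate 31 were higher and it was 0.02. The disease-associated microglia median was 0.03 in both, with 14 and 15 of 25 higher, and also 0.03 without WT replicate 2, with 14 higher. It was 0.05 without WT replicate 4 and 0.06 without exercised replicate 2. With 1 library left out, 2 (WT replicate 5 or exercised replicate 1) to 11 (WT replicate 3) plaque-induced genes were higher at an unadjusted p under 0.05. For the disease-associated microglia list that count ran from 0 to 3.

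Lists for new neurons gave few differences. Of 24 proliferation genes 14 were higher (median 0.14). Mcm3, part of the helicase that licenses DNA replication, stood at 3.20, 3.78, 3.31, 3.56 and 4.19 CPM in WT and at 4.74, 4.77, 4.75, 4.65 and 4.77 CPM in exercised libraries. The groups did not overlap (0.39, SE 0.123, adjusted p = 0.481), and it was the 1 list member at an unadjusted p under 0.05. Among 20 stem and progenitor genes Sox2, a factor of neural stem cells, gave -0.25 (SE 0.0855) and Prom1, a membrane marker of progenitors, gave 0.28 (SE 0.118). The neuroblast list had 12 of 23 genes higher with a median of 0.00. Its Dcx, a microtubule protein of young neurons, gave -0.07 (SE 0.197), while Elavl2, a neuronal RNA-binding protein, stood at 62.3 to 107 and 42.3 to 72.9 CPM (-0.56, SE 0.148).

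Lists of mature neuron markers, activity genes and growth factors had medians on both sides of 0. Of 22 granule neuron markers 18 were higher (median 0.09), and Prox1, their defining transcription factor, gave -0.05 (SE 0.462). Of 25 CA pyramidal markers 18 were lower (median -0.16). Of 26 immediate early genes 18 were lower (median -0.07), with Arc at -0.29 (SE 0.343) and Fos at -0.44 (SE 0.408). Among 34 growth factors and receptors Bdnf gave -0.03 (SE 0.297), and Igf1r, the receptor for insulin-like growth factor 1, stood at 96.5 to 128 CPM in WT and 79.9 to 100 CPM in exercised libraries (-0.35, SE 0.0964, adjusted p = 0.481). Id1, a target of BMP signalling, gave 0.50 (SE 0.155) and 0.37 in untreated APP/PS1.

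Markers of neighbouring tissue varied between libraries. Summed thalamus and cortex markers spanned 451 to 2114 CPM in WT and 427 to 890 CPM in exercised libraries. Of 20 members 19 were lower (median -0.60), and without WT replicate 2, which held the sum of 2114 CPM, 10 were higher and the median was 0.00. Untreated APP/PS1 against the same WT libraries gave a median of -0.48. Choroid plexus and ependymal markers summed to 212 to 311 CPM in WT and 200 to 285 CPM in exercised libraries, with none of 24 at an unadjusted p under 0.05.

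The remaining genes of smallest p had an adjusted p of 0.481. Higher were Snrpc (a U1 spliceosome protein, 0.29), Eif6 (a ribosome assembly factor, 0.26), Slc7a6os (0.24), Paqr5 (a progestin receptor of the membrane, 0.77), Slc25a28 (mitoferrin-2, an iron carrier, 0.25), Lor (loricrin, 0.44) and Fance (a Fanconi anaemia protein, 0.32). Slc7a6os, Paqr5 and Lor had all exercised libraries above all WT libraries. Lower were Mafg (a small Maf factor, -0.32), Gen1 (a Holliday junction resolvase, -0.78), Madd (a Rab3 exchange factor, -0.30), Tmco7 (-0.48), Usp31 (a deubiquitinase family member, -0.39), Exph5 (a Rab27 effector, -1.24), Mir384 (-1.52), Zfp568 (a zinc finger repressor, -0.47) and Raph1 (lamellipodin, -0.44). Mafg, Gen1, Madd, Exph5, Mir384 and Zfp568 had all exercised libraries below all WT libraries. Over all genes, 90 (0.492%) lay above WT in all 5 exercised libraries and 70 (0.383%) lay below.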

How the data were processed

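Total RNA of dentate gyrus was sequenced, 1 library per mouse. The values used are read counts per gene, which the authors deposited as 1 table of 24 libraries. The submitters' processing notes name STAR, HTSeq, DESeq and build mm10, without versions, and the labels do not say whether counting used strand. A second deposited table of normalised values was not used. The comparison of 5 exercised APP/PS1 with 5 WT libraries came from 1 fit of all 24 libraries with a mean per group, so the spread is shared. Genes passed filterByExpr of edgeR 4.0.16 (minimum count 10, minimum total 15) in R 4.3.3, were scaled by TMM, and were tested with the robust quasi-likelihood F test. The threshold was 0.05 for p adjusted by Benjamini-Hochberg. The SE of a log2 fold change is its size over the root of F. CPM use TMM-scaled library sizes, and log2 CPM a prior count of 2. Counts per library ran from 48656360 to 64632882. Replicates are described as separate mice. The fit was tested on simulated data.

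The genes named were App, Prnp, the 15 of smallest p in each direction among genes with a symbol of their own, and up to 4 of smallest p in each of 37 lists. Some genes that this rule selects are not reported here. Other list members are named as defining markers, after their values were seen. The comparison, members and lists were chosen with earlier results of these data known. Of 939 list symbols 937 were found, 14 through an older symbol. Gene spans came from GENCODE (GRCm38) for 95.8% of tested genes. The alternatives were DESeq size factors, 2 other filters, DESeq2 1.42.0, voom in limma 3.58.1 with quality weights, the compared libraries alone, a replicate block, 1 surrogate variable (sva 3.50.0), a dissection covariate, leaving out 4 libraries with over 100 CPM of Ttr, and each of the 10 libraries in turn. A gene size covariate and leaving out exercised replicates 1, 2 and 5 were chosen after seeing the data.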

Additional observations from a re-analysis of the deposited data

Results flagged for a closer look

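Some libraries stood apart from the other 4 of their group, by a gap of over 0.71 of the group's range. This was seen in 8 of 80 groups of values looked at, where chance alone gives about 1 in 20. In WT, replicate 3 was highest in the ribosomal protein measure (7.53, next 7.32 mean log2 CPM), lowest in the long minus short gene measure (-0.14, next 0.01) and highest in Nr1d1 (237 CPM, next 198). WT replicate 2 was highest in the share of Rn45s (2.78% of counts, next 1.50%) and lowest in Acvrl1 (9.20 CPM, next 10.6). Among exercised libraries, replicate 4 was highest in Gen1 (0.937 CPM, next 0.628) and lowest in the granule neuron measure (5.95, next 6.55 mean log2 CPM), and replicate 3 was highest in Madd (232 CPM, next 211).

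The effect of APP/PS1 against WT passed a test of the difference between exercised and untreated mice for 1 gene, Sulf1, an enzyme that edits heparan sulfate. It stood at 4.03 ± 0.952 CPM (SD, n = 5) with the wheel, 14.5 ± 7.51 CPM (SD, n = 5) in untreated APP/PS1 and 5.12 ± 1.64 CPM (SD, n = 5) in WT. The difference between exercised and untreated mice was -1.84 on the log2 scale (SE 0.285, adjusted p = 0.0292 by edgeR). No gene was called lower in that comparison with a replicate block, with the compared libraries alone or with the gene size covariate, so the Sulf1 call was lost in all 3, and DESeq2 called 60 lower. The median of 24 choroid plexus and ependymal markers moved alongside, at 2.37 in untreated APP/PS1 and -0.47 in exercised APP/PS1 against WT, and its part in the Sulf1 result was not tested.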

How the results depend on the processing

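App and Prnp kept their direction in every alternative run, from 0.83 to 0.97 and 1.18 to 1.30 on the log2 scale when 1 library was left out. With the compared libraries alone App was 0.89 (adjusted p = 0.200) and no longer called. Then 1 gene was called higher, 1 in untreated APP/PS1 against WT, and 0 lower in exercised against untreated APP/PS1. Against 2 higher and 0 lower genes, DESeq2 called 3 higher and 3 lower, and voom with quality weights called 240 higher and 221 lower. Leaving out 1 library gave 2 to 4 higher (4 without exercised replicate 3) and 0 lower. DESeq2 called 14 genes higher in untreated APP/PS1 against WT, and 1 higher and 60 lower in exercised against untreated APP/PS1. With a replicate block 2 genes were called higher and 0 lower against WT, and 0 lower in exercised against untreated APP/PS1, where the size covariate also called 0. Same-numbered WT and exercised libraries did not deviate together (correlations of -0.25 to 0.06 over 5 pairs). So few pairs cannot settle whether the numbers pair the mice. The cause of these changes was not tested. Genes near or under 1 CPM, such as Esm1, Mir384, Gen1 and Cnn1, rest on few counts.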
